A study of Mus musculus with 11 samples.

Results

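The genes of melanin synthesis and of melanosome proteins were followed through 4 mouse cell lines of a melanoma progression series. The members were the 9 genes of a given list that have a row in the deposited values, 9 of 9 listed, among 14272 genes in all. They are the enzymes Tyr, Tyrp1 and Dct, the matrix and membrane proteins Pmel, Mlana and Gpr143, and the transporters Oca2, Slc45a2 and Slc24a5. Total RNA was sequenced from 11 libraries: melan-a gave 2 (replicates 2 and 3), and 4C, 4C11- and 4C11+ gave 3 per line. The starting line, melan-a, consists of melanocytes that became immortal on their own and are not malignant. 4C (pre-malignant), 4C11- (non-metastatic melanoma) and 4C11+ (metastatic melanoma) descend from it through repeated cycles in which attachment to the dish was prevented. The 4 lines grew in RPMI with fetal bovine serum, and melan-a alone also received 200 nM of the phorbol ester PMA, so that line and PMA cannot be told apart in any comparison with melan-a. Each line is a single lineage, and its libraries come from separate cultures of that line, so the tests below speak of these lines and not of melanomas in general.

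Melanin is made inside the melanosome, an organelle of pigment cells that starts as a vesicle with protein fibrils and fills with pigment as it matures. Tyrosinase carries out the first and rate-limiting oxidation of tyrosine, and TYRP1 and DCT act later on the path to eumelanin. PMEL forms the fibrils on which pigment is laid down, while ion and solute transporters of the organelle set the pH and the supply that tyrosinase needs.

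Values are log2 CPM as deposited, CPM being read counts scaled to a common library size. Every library has the same highest value, which points to a further quantile step between libraries. The CPM levels, differences and ratios below are on that scale and are not those of plain scaled counts. Within a library the low end of the scale is stepped, each step being a single read, and the depth inferred from the steps was approximately 3.50 and 5.82 M reads for melan-a. For 4C it was 5.67 to 7.08 M, for 4C11- 4.58 to 7.42 M and for 4C11+ 4.07 to 5.47 M. Reads are quoted from these steps up to 100 reads, and they carry counting error of their own. Differences are log2 differences between line means from limma over all genes, and a gene was called at an adjusted p under 0.05. A member at 0 reads in every library of a line is given as a lower bound against 3 reads over that line. Against a line with 1 to 3 reads in all, a member is given as a ratio with its 95% counting interval. Sox10 was treated alike, and bounds also enter the medians where named. Other genes at such reads are given by their reads, levels or calls. These bounds and intervals cover only the counting error of the lower line. The level of the higher line or library is taken as it stands, also where it rests on few reads.

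The 2 melan-a libraries stood apart from each other. Across genes their Pearson correlation was 0.907, against 0.948 to 0.974 between 4C libraries and 0.955 to 0.981 between 4C11+ libraries. Between 4C11- libraries it was 0.888 to 0.971, and there replicate 1 stood apart, at 0.888 and 0.924 with the other 2. That library held 8 of the 10 reads of Tyrp1, 5 of the 8 of Mlana and 28 of the 53 of Pmel in 4C11-. Slc24a5 went the other way, with 3 of its 30 reads there. Tyrp1 was 8.51 in melan-a replicate 2 and 12.63 in replicate 3, and Oca2 was 0.06 and 4.56. The members summed to 1123 CPM in replicate 2 and 8731 CPM in replicate 3. For the members, values with 1 library left out are therefore given beside differences from melan-a. Without a melan-a library the single remaining one is assumed to vary as the other lines do.

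The label of the lines as melanocytic was checked against 7 melanocyte markers, of which 6 had a row (Mitf, Sox10, Pax3, Kit, Mc1r and Trpm1). Their summed level was 1180 and 774 CPM in melan-a and 459 to 1063 CPM in 4C11+. In 4C it was 44.4 to 50.01 CPM and in 4C11- 37.9 to 48.1 CPM, and there Pax3 was the most abundant of the 6 in each library and 3 or 4 of the 6 lay at 3 reads or fewer. By these markers the melanocyte programme was present in melan-a and 4C11+, and most of it was at or near 0 in 4C and 4C11-. In such bulk cultures, fewer cells of a type and less RNA per cell cannot be told apart.

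Promoter sequences are shown because the 9 members were called higher in 4C11+ than in 4C and than in 4C11-. Of the 9 members, 5 (Tyr, Tyrp1, Dct, Oca2 and Slc24a5) matched an entry in the RefSeq promoter table (GRCm38.p6, 250 bases before and 50 after the start), and Pmel, Mlana, Gpr143 and Slc45a2 had no entry. The searched motifs were the E-boxes CATGTG and CACGTG and the SOX-type ACAAAG and ACAATG, on both strands. CATGTG was found in each of the 5 promoters, and in 4650 of all 32851 promoters of that length (14.2%). CACGTG was in none of the 5 and in 7.15% of all. The windows below end before the start site of the RefSeq table, run 5′ to 3′ on the strand of the gene, and carry CATGTG or its reverse complement CACATG in capitals.
Tyr, chr7:87493513-87493573, minus strand: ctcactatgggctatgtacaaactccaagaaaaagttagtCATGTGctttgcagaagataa
Tyrp1, chr4:80834155-80834184, plus strand: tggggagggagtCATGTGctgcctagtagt
Dct, chr14:118052351-118052496, minus strand: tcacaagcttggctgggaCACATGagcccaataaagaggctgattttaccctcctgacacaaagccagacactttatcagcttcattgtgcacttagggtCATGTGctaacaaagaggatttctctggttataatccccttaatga
Oca2, chr7:56239533-56239618, plus strand: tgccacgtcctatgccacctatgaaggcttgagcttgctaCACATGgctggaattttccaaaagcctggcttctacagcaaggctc
Slc24a5, chr2:125068074-125068126, plus strand: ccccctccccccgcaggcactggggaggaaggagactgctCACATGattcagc
In the 3 enzyme genes CATGTG stood on the strand of the gene, its first base at -21 in Tyr, -46 in Tyrp1 and -150 in Dct from the start. On the opposite strand it stood in Oca2 and Slc24a5 and, as a further match at -232, in Dct. The Tyrp1 window lies inside the first exon of the longer GENCODE gene model, which is why 30 bases are shown. The last 3 bases of the Slc24a5 window also lie in a GENCODE exon, as that gene model starts earlier than the RefSeq start. ACAAAG was found in Dct (2 times), Tyrp1 and Oca2 (18.7% of all promoters), and ACAATG in Dct (12.6% of all). These matches are a description of letters and were not tested for binding or effect.

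Tyr encodes tyrosinase and lies at chr7:87424771-87493512. It was -0.25 and 1.29 in melan-a (3 and 13 reads), -3.44, -2.44 and -2.01 in 4C (0, 1 and 2 reads), -3.15, -3.44 and -3.44 in 4C11- (0 reads in each) and 8.46, 8.39 and 8.70 in 4C11+. The 4C11+ libraries were far above the others, melan-a was barely above the bottom of the scale, and neither group overlapped with 4C or 4C11-. Tyr was 7.997 log2 units higher in 4C11+ than in melan-a (SE 0.591, limma adjusted p 5.37e-06), and 7.22 to 8.77 with any 1 library left out. The mean of 4C11+, 367 CPM, was 2360 times the level of the 3 reads in 4C (807 to 11443; limma adjusted p 5.76e-08) and at least 2289-fold higher than in 4C11- (limma adjusted p 4.27e-08). Melan-a, at a mean of 1.64 CPM, was 10.5 times 4C (3.61 to 51.2; adjusted p 0.00352, limma) and at least 10.2-fold higher than 4C11- (adjusted p 0.000927, limma). In a fit of the 2 lines alone these last calls were lost, with limma adjusted p 0.0590 against 4C (0.00193 to 0.0590 over the alternatives) and 0.0652 against 4C11- (0.000571 to 0.0652). By itself melan-a replicate 2 was 5.38 times 4C and at least 5.22-fold higher than 4C11-, and replicate 3 was 15.7 times and at least 15.2-fold higher. These values rest on 3 and 13 melan-a reads, whose own counting error they leave out.

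Tyrp1, the tyrosinase-related oxidase of the eumelanin path at chr4:80834123-80851719, had another pattern in melan-a. It was 8.51 and 12.63 in melan-a, -0.04, -1.01 and 0.06 in 4C (4 to 6 reads), 0.69, -3.15 and -3.15 in 4C11- (8, 1 and 1 reads) and 11.64, 11.64 and 11.39 in 4C11+. Melan-a and 4C11+ overlapped, 4C and 4C11- overlapped, and the lowest library of the first pair stood above the highest of the second. Tyrp1 fell relative to melan-a in 4C (-10.90, limma adjusted p 6.26e-05) and in 4C11- (-12.44, limma adjusted p 2.38e-05). Without melan-a replicate 2 these were -12.96 and -14.50, and without replicate 3 they were -8.84 and -10.38, and each was called. Between 4C11+ and melan-a the difference of 0.99 was not called (95% interval -1.64 to 3.61, limma adjusted p 0.620), and it was -1.08 without melan-a replicate 2 and 3.05 without replicate 3.

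Dct, the dopachrome tautomerase at chr14:118012790-118052244, was 9.04 and 10.81 in melan-a, 0.87, 0.26 and -2.44 in 4C (11, 9 and 1 reads), -0.24, -2.58 and -2.01 in 4C11- (4, 2 and 3 reads) and 11.81, 11.39 and 11.91 in 4C11+. The 4C11+ libraries lay above both melan-a libraries, but the difference of 1.78 was not called (95% interval -0.23 to 3.79, limma adjusted p 0.218). It was 0.90 without melan-a replicate 2 and 2.66 without replicate 3, and was not called in either. Dct fell by 10.36 in 4C and by 11.53 in 4C11- against melan-a (limma adjusted p 1.07e-05 and 5.39e-06). With any 1 library left out, these ranged from -11.24 to -9.36 in 4C and from -12.41 to -10.65 in 4C11-. Within a library, Tyrp1 exceeded Tyr by 8.76 and 11.34 log2 units of CPM in melan-a and by 2.69 to 3.25 in 4C11+. Per kb of exon, Tyr made up 0.0541% and 0.0135% of the summed CPM of the 3 enzymes in melan-a and 2.77% to 3.53% in 4C11+. The melan-a shares rest on 3 and 13 reads of Tyr. The length used is that of all annotated exons of a gene and not of the transcript expressed.

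**Figure D1:**
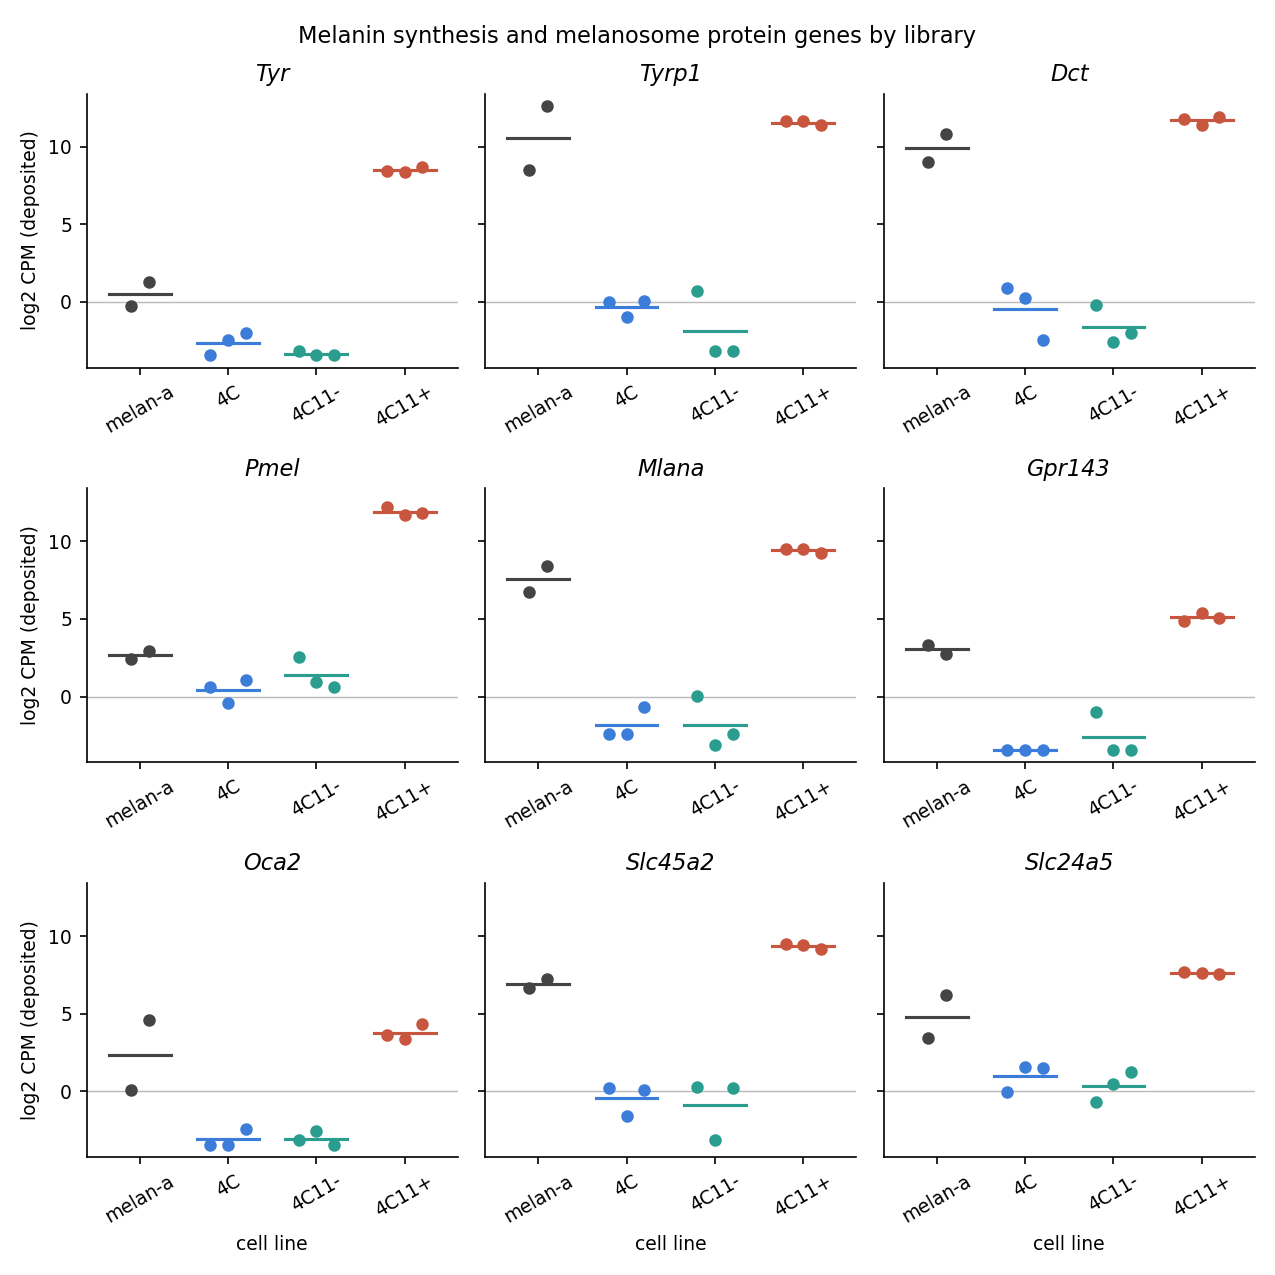
The 9 members in each library. Each panel is a gene, the vertical axis is the deposited log2 CPM, points are libraries and bars are line means (melan-a n = 2, other lines n = 3). Each member is highest or among the highest in 4C11+, and Tyr and Pmel are at 2.95 or below in melan-a, where Tyrp1 and Dct are at 8.51 or above.

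Pmel encodes the protein of the melanosome fibrils and lies at chr10:128704195-128720238. It was 2.41 and 2.95 in melan-a (20 and 45 reads), 0.60, -0.42 and 1.05 in 4C (6 to 12 reads), 2.54, 0.96 and 0.60 in 4C11- (28, 14 and 11 reads) and 12.20, 11.72 and 11.81 in 4C11+. The 4C11+ libraries stood alone, and the other 3 lines lay within a few log2 units of each other, with melan-a overlapping 4C11-. Pmel was 9.23 higher in 4C11+ than in melan-a (SE 0.564, limma adjusted p 1.29e-06, and 8.96 to 9.50 with any 1 library left out), 11.50 higher than in 4C (adjusted p 3.39e-08, limma) and 10.54 higher than in 4C11- (adjusted p 6.44e-08, limma). It fell by 2.27 in 4C against melan-a (limma adjusted p 0.0178), a call lost without melan-a replicate 3 (-2.01, limma adjusted p 0.0998), without 4C replicate 2 (-1.86, limma adjusted p 0.0658) and in a fit of the 2 lines alone (limma adjusted p 0.0567, and 0.00264 to 0.0998 over the alternatives). The difference of -1.32 in 4C11- was not called (limma adjusted p 0.163), and it was called without 4C11- replicate 1 (-1.91, limma adjusted p 0.0148, and 0.0148 to 0.417 over the alternatives). With any 1 library left out it ranged from -1.91 to -0.93.

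Exons of Pmel overlap those of Cdk2 by 34 bases and those of Dgka by 105 bases, both on the opposite strand. The library kit keeps the strand, but whether the counting used it is not given in the sources used here, so reads in the overlaps cannot be told apart. The line means, from melan-a through 4C and 4C11- to 4C11+, were 6.52, 6.32, 6.64 and 7.62 for Cdk2 and 0.55, 1.31, 1.93 and 1.26 for Dgka. The part of these genes in the low Pmel values was not tested.

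Mlana, a small membrane protein that is needed for the maturation of PMEL, lies at chr19:29697824-29708634. It was 6.73 and 8.40 in melan-a, -2.44, -2.44 and -0.70 in 4C (1, 1 and 4 reads), 0.06, -3.15 and -2.44 in 4C11- (5, 1 and 2 reads) and 9.48, 9.54 and 9.26 in 4C11+. Melan-a and 4C11+ did not overlap with the other lines or with each other. Against melan-a it fell in 4C (-9.43, limma adjusted p 1.47e-05) and in 4C11- (-9.41, limma adjusted p 1.72e-05). With any 1 library left out, these ranged from -10.26 to -8.59 and from -10.36 to -8.57. The difference of 1.86 between 4C11+ and melan-a was not called (95% interval -0.04 to 3.77, limma adjusted p 0.172), although a fit of the 2 lines alone called it (limma adjusted p 0.0485, and 0.0485 to 0.613 over the alternatives). It was 1.02 without melan-a replicate 2 and 2.70 without replicate 3, and was not called in either. Within a library, Pmel minus Mlana in log2 CPM was -4.31 and -5.46 in melan-a and 2.18 to 2.71 in 4C11+.

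Gpr143, the melanosomal G protein-coupled receptor of ocular albinism at chrX:152781921-152808646, was 3.33 and 2.75 in melan-a (35 and 38 reads), -3.44 in each 4C library (0 reads), -1.01, -3.44 and -3.44 in 4C11- (2, 0 and 0 reads) and 4.89, 5.36 and 5.05 in 4C11+. Melan-a lay between 4C11+ and the other lines without overlap. Gpr143 was at least 53.7-fold higher in melan-a than in 4C (limma adjusted p 6.43e-05) and 78.2 times its level in 4C11- (21.6 to 646; limma adjusted p 0.000214). By itself melan-a replicate 2 was at least 64.4-fold higher than 4C and 93.7 times 4C11-. Replicate 3 was at least 43.1-fold higher and 62.7 times. The fitted difference of 4C11- from melan-a ranged from -6.47 to -5.26 with any 1 library left out. In 4C11+ it was at least 222-fold higher than in 4C (limma adjusted p 1.60e-06) and 323 times its level in 4C11- (89.5 to 2668; limma adjusted p 4.23e-06). The difference of 2.06 between 4C11+ and melan-a was not called (95% interval 0.50 to 3.63, limma adjusted p 0.0732). It was called in a fit of the 2 lines alone (limma adjusted p 0.0157) and without 4C11- replicate 1 (limma adjusted p 0.0113), with 0.0113 to 0.218 over the alternatives, and the difference without 1 library ranged from 1.77 to 2.35.

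Oca2, an anion channel of the melanosome membrane at chr7:56239760-56536518, was 0.06 and 4.56 in melan-a, -3.44, -3.44 and -2.44 in 4C (0, 0 and 1 reads), -3.15, -2.58 and -3.44 in 4C11- (0, 2 and 0 reads) and 3.63, 3.35 and 4.33 in 4C11+. Melan-a replicate 2 had 4 reads and replicate 3 was above each 4C11+ library, so the 2 lines overlapped. The 4C11+ mean was 274 times the level in 4C (49.2 to 10836; limma adjusted p 0.000180) and 133 times that in 4C11- (36.8 to 1099; limma adjusted p 0.000202). Melan-a was 238 times 4C (42.7 to 9399; limma adjusted p 0.00406) and 115 times 4C11- (32.0 to 953; limma adjusted p 0.00452), and the latter call was lost in a fit of the 2 lines alone (limma adjusted p 0.0806, and 5.90e-05 to 0.0806 over the alternatives). These ratios rest mostly on replicate 3: melan-a replicate 2 by itself was 20.1 times 4C and 9.77 times 4C11-, and replicate 3 was 456 and 221 times. The calls against 4C and 4C11- held without either library. Between 4C11+ and melan-a the difference of 1.46 was not called (limma adjusted p 0.373). It was -0.79 without melan-a replicate 2, and without replicate 3 it was 3.71 and was called (limma adjusted p 0.0106, and 0.0106 to 0.584 over the alternatives).

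Slc45a2, a melanosomal transporter mutated in oculocutaneous albinism, lies at chr15:11000721-11029233. It was 6.63 and 7.25 in melan-a, 0.20, -1.61 and 0.06 in 4C (3 to 7 reads), 0.26, -3.15 and 0.22 in 4C11- (6, 1 and 9 reads) and 9.46, 9.45 and 9.14 in 4C11+. The 2 melan-a libraries were close to each other here, below 4C11+ and above the other lines. Slc45a2 fell against melan-a in 4C (-7.39, limma adjusted p 0.000137) and in 4C11- (-7.83, limma adjusted p 9.15e-05). With any 1 library left out, these ranged from -7.71 to -6.81 and from -8.41 to -6.70. It was 2.41 higher in 4C11+ than in melan-a, which was not called (95% interval 0.45 to 4.36, limma adjusted p 0.0922). It was called in a fit of the 2 lines alone (limma adjusted p 0.00288) and without 4C11- replicate 2 (limma adjusted p 0.0130), with 0.00288 to 0.322 over the alternatives, and the difference without 1 library ranged from 2.10 to 2.72.

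Slc24a5, a potassium-dependent sodium and calcium exchanger at chr2:125068124-125088677, was 3.41 and 6.21 in melan-a, -0.04, 1.58 and 1.48 in 4C (6, 22 and 16 reads), -0.70, 0.44 and 1.26 in 4C11- (3, 10 and 17 reads) and 7.69, 7.63 and 7.58 in 4C11+. The 3 levels, 4C11+, melan-a and the other lines, did not overlap. Slc24a5 was 2.83 higher in 4C11+ than in melan-a (SE 0.789, limma adjusted p 0.0318). The call was lost without melan-a replicate 2 (1.43, limma adjusted p 0.299), in a fit of the 2 lines alone (limma adjusted p 0.0523) and without 4C11+ replicate 1, 2 or 3 (2.80, 2.83 and 2.85, limma adjusted p 0.0924, 0.0873 and 0.0611). Without melan-a replicate 3 it was 4.22, and the limma adjusted p over the alternatives was 0.00417 to 0.299. It fell by 3.80 in 4C (limma adjusted p 0.00651), a call lost without melan-a replicate 3 (-2.41, limma adjusted p 0.0663, and 0.000825 to 0.0663 over the alternatives), and by 4.48 in 4C11- (limma adjusted p 0.00241). Without melan-a replicate 2 or 3 the latter was -5.87 or -3.08. Slc24a5 shares 921 exon bases with Myef2 on the opposite strand. The line means of Myef2, in the same order as above for Cdk2, were 6.99, 6.70, 6.18 and 6.16, and its part in the low Slc24a5 values was not tested.

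The first step of the series asks what changes from melan-a to 4C. Of the 9 members, 9 were called lower in 4C than in melan-a, where 7.55% of all genes were called lower (1077 of 14272, limma). The median difference of the members was -6.47, or -5.75 with Gpr143 at its bound, beside -0.06 over all genes. Of the 9 members, 8 were called lower in 4C11- than in melan-a, where 6.05% of all genes were (863 genes, limma), and Pmel was not called. Here the median was -5.67 beside -0.07 over all genes. In fits of 2 lines alone the member counts were 7 in 4C (Pmel and Tyr lost) and 6 in 4C11- (Oca2 and Tyr lost), and the counts over all genes were 685 and 291. In 4C the member count was 7 without melan-a replicate 3 (Pmel and Slc24a5 lost) and 8 without 4C replicate 2 (Pmel lost). Without 4C11- replicate 1, 9 members were called in 4C11-. Over all genes the count in 4C was 717 without melan-a replicate 2 and 677 without 4C replicate 2, and in 4C11- it was 554 without 4C11- replicate 2. These comparisons share the melan-a libraries. Leaving out a melan-a library moved the fitted difference of Oca2 the most among the members, from -5.42 in 4C to -7.67 without replicate 2 and -3.17 without replicate 3, and from -5.37 in 4C11- to -7.62 and -3.12.

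Between 4C11- and 4C, 0 of the 9 members were called by limma, where 1.67% of all genes were called in either direction (238 genes). That count over all genes was 93 and 113 without 4C replicate 2 and 3, 97 without 4C11- replicate 2 and 155 without 4C11+ replicate 1, and the member count was 0 in each. At an unadjusted p under 0.05 the count was 0 of the 9 members and 1926 of all genes. The member nearest to a call was Pmel, 0.96 higher in 4C11- (95% interval -0.15 to 2.06, limma adjusted p 0.462). For Tyrp1 the interval ran from -3.89 to 0.81 and for Dct from -2.97 to 0.63, so falls of several log2 units lay within both intervals. Tyr and Oca2 were at or under 3 reads over the line in both, and no fold is given for them or for Gpr143, which had 0 and 2 reads.

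Of the 9 members, 9 were called higher in 4C11+ than in 4C, where 17.1% of all genes were called higher (2442 genes, limma). The same held against 4C11-, with 9 of 9 members and 15.6% of all genes (2233 genes). The median difference of the members was 11.14 against 4C and 10.54 against 4C11-, beside 0.08 and 0.12 over all genes. The 4C11+ libraries enter both. The authors had kept only genes that reached 1 CPM in 4 or more libraries. On the deposited scale Tyr, Gpr143 and Oca2 reach 1 CPM in melan-a and 4C11+ libraries only. They are present through the lines where they are high, so their calls against 4C and 4C11- are not independent of that filter. Over all genes the count against 4C was 1614 without 4C replicate 2 and 1564 and 1561 without 4C11+ replicate 1 and 2, and against 4C11- it was 1365 and 1415 without the latter libraries, with 9 members called in each. The members with more than 3 reads in 4C ranged from 6.63 for Slc24a5 to 12.14 for Dct (limma adjusted p 2.78e-05 and 7.39e-07). Against 4C11- the corresponding range was 7.30 for Slc24a5 to 13.42 for Tyrp1 (limma adjusted p 1.43e-05 and 3.07e-06). Leaving out any 1 library moved a member by at most 1.001 against 4C (Dct, without 4C replicate 3) and by at most 1.28 against 4C11- (Tyrp1, without 4C11- replicate 1).

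Between the 2 lines that express most of these genes, 3 of the 9 members (Tyr, Pmel and Slc24a5) were called higher in 4C11+ than in melan-a, where 8.39% of all genes were called higher (1197 of 14272, limma). None of the 9 members was called lower, where 1073 of all 14272 genes were. The fitted difference of each of the other 6 was above 0, and the median of the 9 was 2.06 beside 0.03 over all genes. For Tyrp1 and Oca2 the sign turned without melan-a replicate 2. The count was 2 without that library, 4 without melan-a replicate 3, 2 without any 1 of the 4C11+ libraries, 4 without 4C11- replicate 1 or 2 and 5 in a fit of the 2 lines alone. The count over all genes moved as well, from 1197 to 712 without melan-a replicate 2, 540 and 554 without 4C11+ replicate 1 and 2, and 778 in a fit of the 2 lines alone. It was 1224 without 4C11+ replicate 3 and 1240 without melan-a replicate 3.

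**Figure D2:**
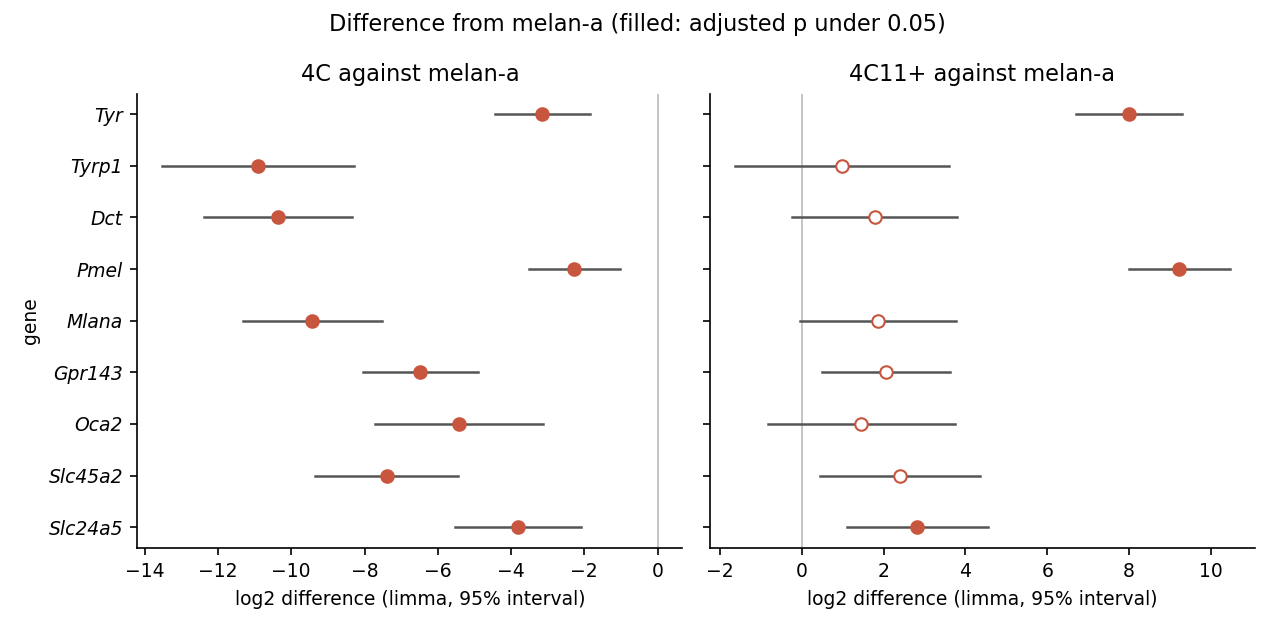
Log2 differences of the 9 members from melan-a with 95% intervals (limma), for 4C on the left and 4C11+ on the right. Filled points are called at an adjusted p under 0.05. In 4C the 9 points lie between -10.90 and -2.27, and in 4C11+ Pmel (9.23) and Tyr (7.997) stand apart from the other 7, which lie between 0.99 and 2.83. Over the 4C line Gpr143 had 0 reads, Oca2 1 read and Tyr 3 reads. Their points on the left are fitted values at or near the bottom of the scale and not measured folds.

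Levels of different genes were compared per kb of exon, the length being that of all annotated exons of a gene. Which transcripts were expressed was not determined, and another length would shift a gene in the order. In 4C11+ the order on the scale of log2 CPM per kb was Pmel (10.71), Tyrp1 (10.05), Mlana (9.35), Dct (9.14), Slc45a2 (7.77), Slc24a5 (6.42), Tyr (5.69), Gpr143 (4.10) and Oca2 (1.79). Mlana and Dct were within the spread of their libraries, 9.18 to 9.46 and 8.83 to 9.35, and the other neighbours in this order did not overlap. In melan-a the order began with Tyrp1 (9.07), Mlana (7.49) and Dct (7.36), and Pmel was in place 7 (1.48) and Tyr in place 9 (-2.31). Both melan-a libraries had the same genes in places 1 to 4 (Tyrp1, Mlana, Dct and Slc45a2), 7 and 9. Mlana and Dct were close in both, at 6.65 and 6.48 in replicate 2 and 8.32 and 8.25 in replicate 3. Slc24a5, Gpr143 and Oca2 changed places between the libraries, Oca2 being in place 8 in replicate 2 (-1.92) and in place 6 in replicate 3 (2.58). In replicate 3, Pmel and Gpr143 were equal to within 0.01. In 4C and 4C11- the highest of the 9 per kb were Slc24a5 (-0.21) and Pmel (0.17), the genes with annotated overlaps described above. The 9 members together amounted to 11267 to 13498 CPM in 4C11+, 6.31 to 8.27 CPM in 4C and 4.15 to 11.9 CPM in 4C11-.

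**Figure D3:**
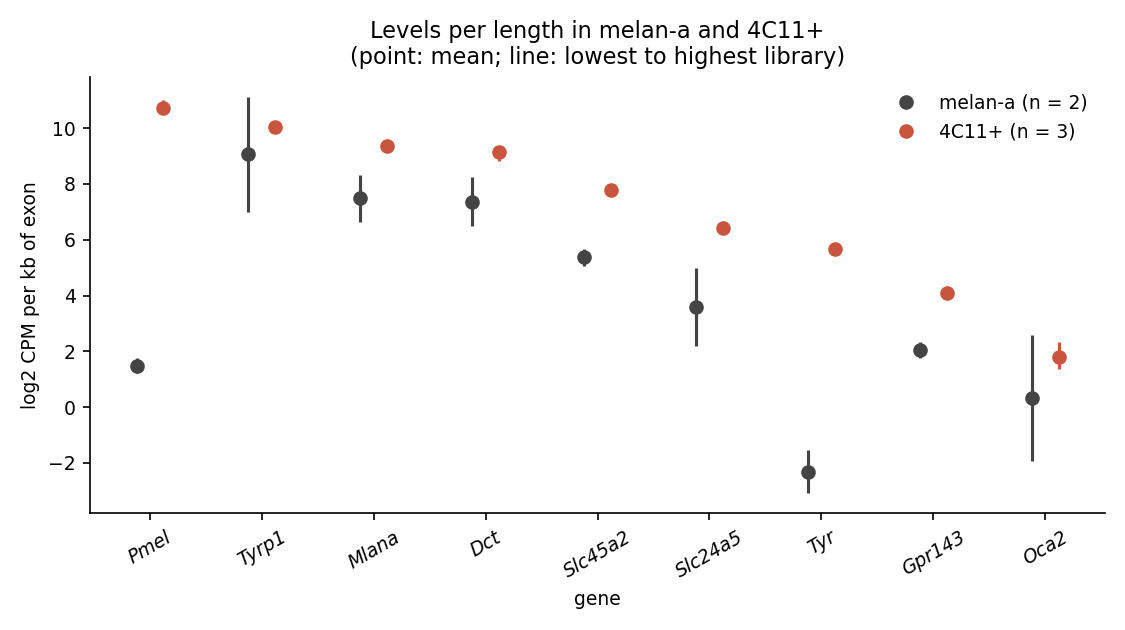
Levels of the 9 members in melan-a and 4C11+ as log2 CPM per kb of exon, in the order of 4C11+. Points are line means and vertical lines run from the lowest to the highest library. Pmel is first in 4C11+ (10.71) and in place 7 in melan-a (1.48), while Tyrp1 is high in both (10.05 and 9.07).

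Other genes of pigment cells were described in 3 lists. Of 10 lineage factors and receptors with a row, 7 were called lower and 0 higher in 4C against melan-a (median -3.72, or -3.51 with Trpm1 at its bound), and 7 lower and 0 higher in 4C11- (median -3.64), where 7.55% and 6.05% of all genes were called lower. Against 4C, 7 were higher and 1 lower in 4C11+ (median 3.84), and the same counts held against 4C11- (median 4.52, or 4.30 with Kit at its bound), where 17.1% and 15.6% of all genes were called higher. In those comparisons 2086 and 2200 of all 14272 genes were called lower in 4C11+. Against melan-a, 1090 of all genes were called higher in 4C and 1077 in 4C11-. Mitf, the master regulator of the melanocyte lineage, was 7.73 and 7.97 for melan-a and 6.23 to 8.76 for 4C11+, but -0.70 to 0.87 for 4C (24 reads over the line) and -0.70 to 1.14 for 4C11- (25 reads). It fell by 7.65 in 4C and by 7.94 in 4C11- against melan-a (limma adjusted p 3.89e-05 and 3.16e-05). Sox10, a factor that acts on the Mitf promoter, was 9.05 and 7.88 in melan-a and 7.68 to 8.34 in 4C11+, with 1 read in the 3 libraries of 4C and 18 reads in those of 4C11-. Sox10 was 7366 times higher in melan-a than in 4C (1322 to 290954; limma adjusted p 5.08e-07), and 4540 times higher in melan-a replicate 3 by itself.

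Between 4C11+ and melan-a, Mitf (-0.73), Sox10 (-0.45) and the melanocortin receptor gene Mc1r (0.17) were not called, with limma adjusted p 0.573, 0.697 and 0.921, and the libraries of both lines overlapped for each. With any 1 library left out, Mitf ranged from -1.55 to -0.28. Of the 10 lineage genes, 2 were called higher (Trpm1 and Tfe3) and 2 lower (Kit and Lef1), with a median of -0.29, where 8.39% of all genes were called higher and 1073 of 14272 lower. Kit, the receptor of stem cell factor, was 6.92 and 6.18 in melan-a and 2.69, 2.17 and 4.22 in 4C11+, and was lower there (-3.53, limma adjusted p 0.0299, and 0.00552 to 0.173 over the alternatives). The Kit call was lost without melan-a replicate 2 or 3 (limma adjusted p 0.173 and 0.0596) and without 4C11+ replicate 1 or 2 (limma adjusted p 0.0967 and 0.110). Lef1, a nuclear partner of beta-catenin, had 1 read over the 4C11+ line and was called lower (limma adjusted p 0.000242). Tfe3, 0.92 higher (limma adjusted p 0.0435), lost its call in 11 of the 17 alternatives. Trpm1 was 2.85 higher (limma adjusted p 0.0218), which was not called without melan-a replicate 2 (1.81, limma adjusted p 0.205) or without 4C11+ replicate 1 or 2 (limma adjusted p 0.0662 and 0.0949), with 0.00862 to 0.205 over the alternatives, and was 3.89 without melan-a replicate 3.

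**Figure D4:**
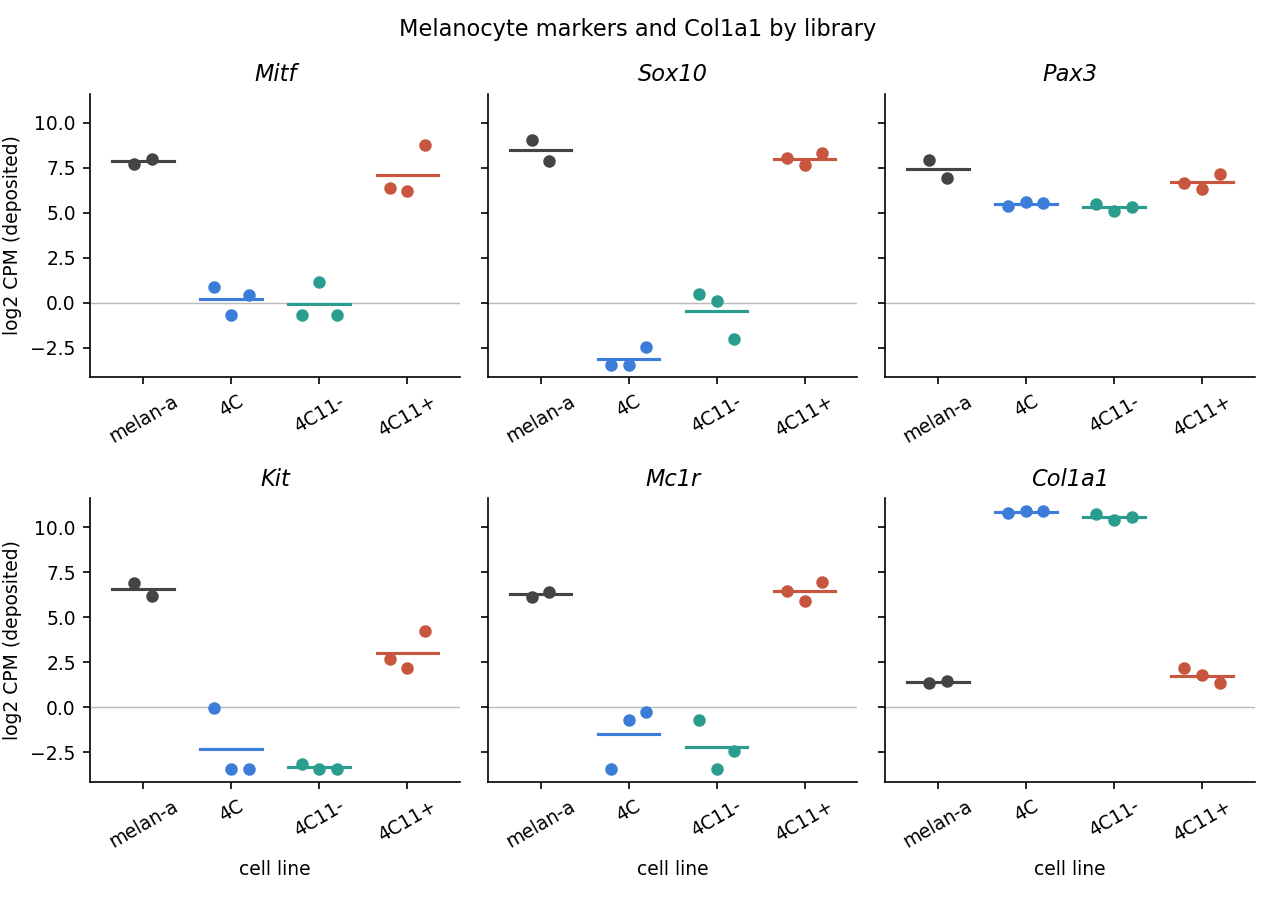
Melanocyte markers Mitf, Sox10, Pax3, Kit and Mc1r and the fibroblast marker Col1a1 in each library, as deposited log2 CPM; points are libraries and bars are line means. Mitf, Sox10 and Mc1r are high in melan-a and 4C11+, Pax3 stays at 5.10 or above in each library, and Col1a1 is at 10.42 or above in 4C and 4C11- and at 2.16 or below in the other lines.

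Of 25 genes of melanosome biogenesis and transport, 0 were called higher in 4C or 4C11- against melan-a, where 1090 and 1077 of all 14272 genes were. Called lower were 4 in 4C and 3 in 4C11- (medians -0.56 and -0.71), where 7.55% and 6.05% of all genes were. Of these, Mreg and Ap3d1 in 4C lost their calls without melan-a replicate 2 (-1.22 and -0.84, limma adjusted p 0.0899 and 0.0996) and in a fit of the 2 lines alone, and Ap3d1 also without 4C replicate 2 (-0.86). Lyst and Ap3s1 in 4C11- lost theirs in a fit of the 2 lines alone. Lyst also lost it without melan-a replicate 2 (-2.29), and Ap3s1 without melan-a replicate 3 (-0.86) and without 4C11- replicate 2 (-1.16). In 4C11+, 12 were higher than in 4C, 14 higher than in 4C11- and 4 higher than in melan-a (medians 0.90, 1.08 and 0.47), and 0 were lower, where 17.1%, 15.6% and 8.39% of all genes were called higher. Of all 14272 genes, 2086, 2200 and 1073 were called lower in these comparisons. Dtnbp1, 1.07 higher than in melan-a (limma adjusted p 0.0232), lost its call without melan-a replicate 2 or 3 (1.13 and 1.01), without 4C11+ replicate 1 or 2 (0.939 and 0.997) and in a fit of the 2 lines alone. Rab38, which helps to deliver tyrosinase and TYRP1 to melanosomes, was 1.77 and 6.18 in melan-a and 8.34, 8.38 and 8.46 in 4C11+, with 2 reads over 4C and 0 over 4C11-. It was 4.42 higher in 4C11+ than in melan-a (limma adjusted p 0.0101), and 2.21 without melan-a replicate 2 and 6.63 without replicate 3. Rab27a, which tethers mature melanosomes to the actin motor, was 2.84 higher in that comparison (limma adjusted p 0.00353, and 2.03 to 3.65 with any 1 library left out). Rab32, a close relative of Rab38, fell by 5.69 in 4C against melan-a (limma adjusted p 5.23e-05, and -6.58 to -4.79 with any 1 library left out). It was 3.83 higher in 4C11- than in 4C (limma adjusted p 0.00410). Of the 25 genes it was the 1 called between those lines, where 1.67% of all genes were called.

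Of 17 genes of melanosome cargo, copper, cystine and substrate supply with a row, 3 were called lower in 4C and 5 in 4C11- against melan-a, where 7.55% and 6.05% of all genes were, and 0 higher (medians -0.69 and -0.45). Called higher there were 1090 and 1077 of all 14272 genes. Slc31a1 in 4C lost its call without melan-a replicate 2 or 4C replicate 2 (-0.968 and -0.967) and in a fit of the 2 lines alone. In 4C11+, 10 were higher and 1 lower than in 4C, 8 higher and 1 lower than in 4C11-, and 1 higher and 0 lower than in melan-a (medians 1.27, 1.22 and 0.43). The shares of all genes called higher were 17.1%, 15.6% and 8.39%, and 1 of 17 is below the last of these. Of all 14272 genes, 2086, 2200 and 1073 were called lower. Bace2, a protease that cuts PMEL, averaged 6.65 in melan-a and 7.08 in 4C11+, and 0.37 in 4C and -3.25 in 4C11-. It fell by 6.28 in 4C against melan-a (limma adjusted p 0.00143), and ranged from -7.59 to -4.98 with any 1 library left out. Apoe, whose protein takes part in PMEL fibril formation on vesicles, was 4.71 higher in 4C11+ than in melan-a (limma adjusted p 0.00131), and ranged from 3.57 to 5.84. Gpnmb, a paralogue of Pmel, was at 7.82 or more on average in each line and fell by 3.57 in 4C11- against melan-a (limma adjusted p 0.00217), with a range of -4.17 to -2.96.

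The genes most like the members were taken as the 10 with the highest Pearson correlation, over the 11 libraries, with the mean of the standardized members. The members themselves had r of 0.900 (Pmel) to 0.986 (Mlana) with that mean. The 10 genes were B3galt5 (0.997), Syt9 (0.996), Marveld1 (0.995), Gsta1 (0.994), Trpm1 (0.994), Sdk1 (0.993), Stx11 (0.993), 1810065E05Rik (0.993), Clvs1 (0.993) and Ankfn1 (0.992). For 8 of them, from B3galt5 to Clvs1 apart from Trpm1, the 4C and 4C11- means were -3.44 and -3.34, the values of lines with 0 reads. The libraries fall into lines, and a gene that is at 0 in both 4C and 4C11- shares much of this pattern by that alone.

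Markers of other cell types were read beside these results. Of 6 fibroblast markers 3 had a row (Col1a1, Col3a1 and Pdgfra), and their sum was 85.9 and 17.9 CPM in melan-a, 2025 to 2213 CPM in 4C, 1663 to 1998 CPM in 4C11- and 8.30 to 9.50 CPM in 4C11+. Col1a1, a collagen chain, was the most abundant in 4C and 4C11-, and it was called higher in 4C by 9.46 and in 4C11- by 9.15 against melan-a (limma adjusted p 3.76e-09 and 5.48e-09). Of 5 Schwann cell markers 4 had a row, with sums of 652 and 258 CPM in melan-a, 104 to 130 CPM in 4C, 57.0 to 95.0 CPM in 4C11- and 411 to 674 CPM in 4C11+, and Mbp was the most abundant in each library. The sums therefore mostly follow Mbp and do not stand for each marker of the list. Of 4 endothelial markers 1 had a row, Cdh5, at 92.9 to 172 CPM in 4C11-, 0.616 to 16.1 CPM in 4C and 0.374 CPM or less in the other lines. Of 6 keratinocyte markers 1 had a row, Krt10, at 2.80 CPM or less in each library. Of 4 leukocyte markers 3 had a row, and their sum was 96.8 CPM in melan-a replicate 2, mostly Cd68, and 12.7 CPM in replicate 3, against 7.64 to 44.7 CPM in the other lines. The part of these markers in the member results was not tested.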

How the data were processed

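Total RNA of 4 mouse cell lines, 11 libraries, was sequenced after ribosomal RNA removal with a stranded kit. The authors trimmed reads with Trimmomatic, aligned them with STAR to GRCm38 and used limma, according to the notes of the submitters. They deposited log2 CPM for each gene. Every library has the same highest value, which points to a quantile step that the sources used here do not give. The authors kept only genes that reached 1 CPM in 4 or more libraries. On the deposited scale 136 of 14272 genes reach 1 CPM in fewer than 4 libraries. In all, 24 genes had no symbol.

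The p values measure spread between cultures of a line. The values were used as deposited. Depth was taken from the step at 40 reads, 3.50 to 7.42 M reads a library; each of the first 100 steps of each library held at least 10 genes. Same-line pairs differed beyond sampling noise in their low reads (chi-square per degree of freedom 1.64 to 8.01), so no library is a copy of another. The tests came from limma 3.58.1 (R 4.3.3, a mean for each line over the 11 libraries, eBayes with trend, Benjamini-Hochberg over all genes, adjusted p under 0.05). Tables and plots used Python 3.11.15 with NumPy 2.4.6, SciPy 1.17.1, pandas 2.3.3 and matplotlib 3.10.9. Lengths and overlaps came from GENCODE exons on GRCm38.

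All 9 members were named. From each list of other genes up to 4 called genes with the largest absolute difference could be named in a comparison, and Mitf, Sox10, Kit, Mc1r and Rab38 in any case; not all were. Cdk2, Dgka and Myef2 are named for their overlap. The members and lists were chosen with earlier results of these data known. The alternatives tried were further normalization, removal of low genes, the replicate block, eBayes without a trend, fits of 2 lines and the removal of each library. Melan-a replicate 1 was not among the samples given.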

Additional observations from a re-analysis of the deposited data

How the results depend on the processing

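Of 116 single-gene differences, 51 of them of members, each under up to 17 alternatives, 1880 values kept their direction and their side of the threshold, 48 lost the call, 8 gained it and 12 changed sign. The count of members called in 4C11+ against melan-a was 3, and 5 in a fit of the 2 lines alone. Such fits gave 7 in place of 9 in 4C and 6 in place of 8 in 4C11-, and 0, 9 and 9 as before between the other lines. Over all genes they gave 685 lower in 4C, 291 lower in 4C11- and 778 higher in 4C11+ against melan-a. Between 4C11- and 4C they gave 143 in either direction. Higher in 4C11+ were 3058 genes relative to 4C and 2188 relative to 4C11-. With 1 library left out the counts were 7 to 9 for 4C, 8 to 9 for 4C11-, and for 4C11+ 2 to 4. With genes under a mean of 1 left out, 6 members stayed in the fit, and the calls against melan-a numbered 6 (4C), 5 (4C11-) and 2 (4C11+). Over all genes left in that fit, 772 were called lower in 4C, 596 lower in 4C11- and 1033 higher in 4C11+.

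With the replicate block, the counts of members called against melan-a were 9 (4C), 8 (4C11-) and 3 (4C11+). Between 4C11- and 4C the count was 0, and for 4C11+ it was 9 relative to either line. Over all genes the block gave 1186 lower in 4C, 875 lower in 4C11- and 965 higher in 4C11+ against melan-a. It gave 254 in either direction between 4C11- and 4C. Higher in 4C11+ were 2634 genes relative to 4C and 2416 relative to 4C11-. Tfe3 in 4C11+ against melan-a lost its call with the block (0.87, limma adjusted p 0.0634). The labels give the libraries a shared number and no other link. The deviations of same-numbered libraries correlated at -0.226 to 0.388, above 0.1 in 8 of 15 pairs, so not every pair deviated together. A library was best matched by its own number in 14 of 30 cases, where 11 would be so if each candidate were equally likely. A shared factor behind some numbers is not excluded.

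Leaving out each library in turn, the sign changes among uncalled differences were as follows. In 4C11+ against melan-a, Tyrp1 ranged from -1.08 to 3.05, Oca2 from -0.79 to 3.71, Sox10 from -1.04 to 0.13 and Mc1r from -0.10 to 0.43. In 4C11- against 4C, Mlana ranged from -0.94 to 0.67, Slc45a2 from -1.02 to 0.69, Mitf from -0.90 to 0.0422 and Kit from -1.60 to 0.10. The cause was not tested. In the low lines, 4C and 4C11-, a member had 0 to 53 reads over a line.

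Counts over all genes that moved by more than 1.5 times were these, with the main count first. Lower in 4C than in melan-a: 1077, and 685 (2 lines alone) or 677 to 1351 (1 library left out). In 4C11- relative to melan-a, higher: 1077 and 552 (2 lines alone); lower: 863, and 291 (2 lines alone) or 554 to 1080. In 4C11+ relative to melan-a, higher: 1197, and 778 (2 lines alone) or 540 to 1502; lower: 1073, and 668 (2 lines alone) or 473 to 1362. In 4C11- relative to 4C, higher: 180, and 106 (2 lines alone), 94 (low genes left out) or 70 to 233; lower: 58, and 37, 31 or 19 to 87. Higher in 4C11+ with 1 library left out: 2442 and 1561 to 2837 relative to 4C, and 2233 and 1365 to 2482 relative to 4C11-.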
